A study of Mus musculus with 20 samples.

Results

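A set of 10 genes used as markers of the fibroblasts of the meninges, the membranes that wrap the brain, was followed sample by sample in the brains of mice with and without the microRNA (miRNA) miR-324. They were taken as a list of gene symbols and found by name in the annotation, and are 10 of the 35580 genes to which the transcript estimates were summed. *Col1a1* and *Col1a2* encode the chains of type I collagen and *Col3a1* that of type III collagen, the fibre-forming collagens of connective tissue. *Dcn* (decorin), *Lum* (lumican), *Ogn* (osteoglycin) and *Fmod* (fibromodulin) encode small leucine-rich proteoglycans, secreted proteins that sit on collagen fibrils and control their assembly. *Igf2* encodes an imprinted growth factor, *Slc6a13* a GABA and taurine transporter (GAT2), and *Aldh1a2* an enzyme that makes retinoic acid from retinaldehyde. In the adult brain, fibroblasts lie in the pia, arachnoid and dura and along larger vessels and hardly at all within the neuropil. *Igf2* is also made by the epithelium of the choroid plexus, the tissue that secretes cerebrospinal fluid.

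The study compared WT mice with miR-324-null mice, which lack *Mir324* in every tissue after a CRISPR/Cas9 deletion, to ask which transcripts change without this miRNA. RNA-seq covered 4 groups of 5 samples: hippocampus and neocortex (labelled cerebral cortex) of WT mice and of miR-324-null mice, all male, 13.5 months old and of strain C57BL/6J by label. No treatment is named for any group. The founders were of mixed C57BL/6 and CBA/ca origin and were backcrossed to C57BL/6J, and WT and null mice were bred as separate lines, so a difference between lines cannot be told apart from one caused by the deletion. The sources used here do not say whether hippocampus and neocortex samples of the same number came from 1 mouse.

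Since a miRNA represses transcripts that carry matches to its seed (bases 2 to 8) in the 3′ untranslated region (3′UTR), the mature arms are shown with the seed in capitals (RefSeq, GRCm38). They lie on the plus strand of chromosome 11, miR-324-5p at chr11:70012060-70012082 and miR-324-3p at chr11:70012095-70012114.
miR-324-5p: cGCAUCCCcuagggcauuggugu
miR-324-3p: cCACUGCCccaggugcugcu
The match to the 5p seed, GGGATGC read 5′ to 3′ on the transcript strand, was in an annotated 3′UTR of 0 of the 10 genes, against 11.2% of the 14334 genes tested in hippocampus that have a 3′UTR. The match to the 3p seed, GGCAGTG, was in 1 of 10, against 20.1% of those genes. That gene was *Igf2*, whose longest 3′UTR of 3050 bases (Igf2-201) held 2 matches. They are shown with the match in capitals, in the sense of the transcript, which runs on the minus strand.
*Igf2*, chr7:142652383-142652389, from base 1427 of the 3′UTR: ggtgggtggggGGCAGTGggggctgg
*Igf2*, chr7:142651872-142651878, from base 1938 of the 3′UTR: agggggcgtggGGCAGTGtcccctca
A match is only a run of letters, and its use by the miRNA was not tested. The paper describes another reported form of miR-324-3p with a different seed, and matches to that seed were not searched.

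A sample held between 12752400 and 19617800 estimated counts, and every one of the 10 genes passed the filter on low counts in every comparison. Their counts per sample were small, from 4 for *Col3a1* in miR-324-null neocortex sample 5 to 3362 for *Igf2* in WT hippocampus sample 3, so the lowest values carry a large counting error. Neuronal markers matched the tissue labels, with the hippocampal genes *Prox1*, *C1ql2*, *Dsp*, *Fibcd1* and *Zbtb20* higher in hippocampus and the neocortical genes *Cux2*, *Rorb*, *Tbr1*, *Rprm* and *Lamp5* lower, in each genotype. Certain libraries stood apart. *Ttr*, the most abundant transcript of choroid plexus epithelium, reached 6806 TPM (abundance scaled to transcript length and library size) in WT hippocampus 3, 5924 in miR-324-null hippocampus 5 and 1250 in miR-324-null neocortex 2, against 15.3 to 165 in the 17 others. In miR-324-null neocortex 5 all 10 genes were at the lowest level of their group. In bulk tissue, fewer fibroblasts, less RNA per fibroblast, less RNA from other cells that make these transcripts and a difference in the tissue taken cannot be told apart.

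Levels between genes were compared in TPM, which accounts for transcript length. *Igf2* and *Dcn* were the highest of the 10 in each group. *Igf2* stood at 60.7 ± 48.9 TPM (SD, n = 5) in WT hippocampus, 47.4 ± 33.8 in miR-324-null hippocampus, 43.3 ± 13.1 in WT neocortex and 36.3 ± 13.8 in miR-324-null neocortex. For *Dcn*, the same groups gave 29.4 ± 12.1, 59.6 ± 26.4, 8.95 ± 3.33 and 11.9 ± 8.09 TPM. All others averaged between 1.03 TPM (*Col3a1*, miR-324-null neocortex) and 8.16 TPM (*Fmod*, WT neocortex). In WT hippocampus the order below *Dcn* was *Ogn* (7.37 ± 1.5), *Fmod* (6.78 ± 2.84), *Slc6a13* (5.85 ± 1.89), *Aldh1a2* (5.48 ± 2.12), *Col1a2* (3.40 ± 1.64), *Lum* (2.37 ± 1.31), *Col1a1* (2.12 ± 0.719) and *Col3a1* (1.58 ± 0.493). The ranges of neighbours in that order overlapped for every pair but *Dcn* and *Ogn*. Elsewhere the ranges of neighbours parted only between *Igf2* and *Ogn* in miR-324-null hippocampus and between *Igf2* and *Dcn* in WT neocortex. *Ogn* ranked at place 3 in hippocampus of either genotype and at place 7 in neocortex, and *Col1a1*, *Col3a1* and *Lum* held the places 7 to 10 in each group.

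**Figure D1:**
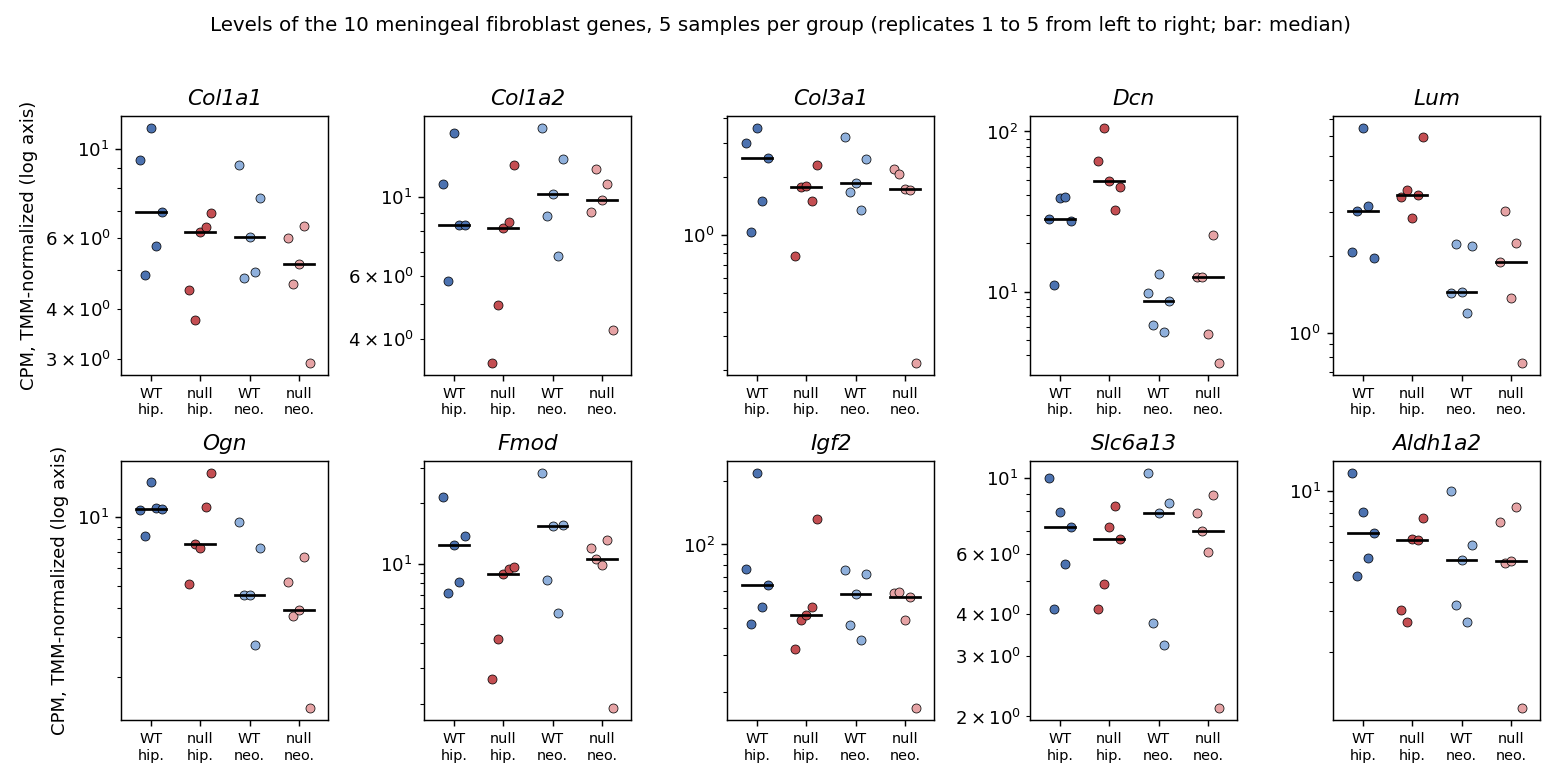
Level of each of the 10 genes in every sample, as TMM-normalized CPM on a log axis, for WT and miR-324-null hippocampus and neocortex (points: samples, replicates 1 to 5 from left to right; bar: median). Genotypes overlap for every gene in both tissues, while *Dcn* separates the miR-324-null hippocampus samples from the miR-324-null neocortex samples.

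The first comparison asked whether these genes differ between miR-324-null and WT mice. None of the 10 was differentially expressed (DE, an adjusted p of at most 0.05 by the quasi-likelihood test of edgeR, adjusted after Benjamini and Hochberg) in hippocampus, where 17 of 14796 genes tested (0.115%) were, or in neocortex, where 47 of 14930 (0.315%) were. At an unadjusted p of at most 0.05, 2 of the 10 passed in hippocampus (*Dcn* and *Fmod*), against 11.1% of all genes, and 0 of 10 in neocortex, against 12.2%. DESeq2 also gave 0 of 10 in either tissue. The point estimates were below 0 for 8 of the 10 in each tissue, with *Dcn* and *Lum* above it, and their medians were -0.41 on the log2 scale in hippocampus and -0.24 in neocortex, beside medians of 0.00121 and 0.00461 over all genes tested. Of all genes, 50.3% in hippocampus and 51.9% in neocortex had point estimates above 0. The 10 genes moved together from sample to sample, so their signs are not independent.

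Markers of other cells and regions also had shifted point estimates between the same neocortex groups, although none was DE by genotype. In miR-324-null against WT neocortex all 6 choroid plexus markers tested were above 0 (median 1.54 on the log2 scale), among them *Ttr* at 2.94 (edgeR adjusted p = 0.255), *Clic6* at 1.55 and *Kl* at 1.54. All 5 hippocampal neuron markers tested were above 0 (median 1.16), with *Fibcd1* at 1.16 (edgeR adjusted p = 0.0854) and *Prox1* at 0.47. So were all 6 striatal markers (median 1.05), with *Adora2a* at 1.73 and *Drd1* at 1.06, and their summed level ran over 122 to 298 TPM in WT and 202 to 505 TPM in null neocortex. Of the 6 neocortical markers tested, 5 were below 0 and 1 was above it (median -0.24). *Cux2* was at -0.38 (edgeR adjusted p = 0.105), *Rorb* at -0.26, *Tbr1* at -0.11 and *Rprm* at 0.085. In hippocampus the choroid plexus markers had a median of -0.28 (7 of 7 tested below 0) and the striatal markers one of -0.24 (6 of 6 below 0). The part of these shifts in the values of the 10 genes was not tested.

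Among the collagens, *Col1a1* in hippocampus read, in TMM-normalized CPM (counts scaled to library size), 9.37, 4.84, 11.3, 5.75 and 6.97 CPM in WT samples 1 to 5 and 4.45, 3.75, 6.22, 6.41 and 6.94 CPM in miR-324-null samples 1 to 5. The null samples filled the lower part of the WT range, with 2 of them below every WT sample, and the log2 fold change was -0.46 (SE 0.239, edgeR adjusted p = 0.497). *Col1a1* in neocortex read 9.11, 4.78, 6.05, 4.94 and 7.55 CPM in WT and 6.01, 4.6, 5.17, 6.43 and 2.93 CPM in null samples (log2 fold change -0.37, SE 0.223, edgeR adjusted p = 0.552). Its partner *Col1a2* had 10.9, 5.81, 15.1, 8.34 and 8.33 CPM in WT hippocampus and 3.43, 4.97, 8.19, 8.50 and 12.3 CPM in miR-324-null hippocampus. Null samples 1 and 2 were below every WT sample and the other 3 lay within the WT range (log2 fold change -0.37, SE 0.313). *Col1a2* neocortex values were 15.6, 8.83, 10.2, 6.85 and 12.8 CPM in WT and 9.08, 12, 9.80, 10.9 and 4.23 CPM in miR-324-null samples (-0.23, SE 0.257). For *Col3a1*, the scarcest of the set, hippocampus samples held 2.99, 1.03, 3.57, 1.5 and 2.50 CPM in WT and 0.780, 1.76, 1.78, 1.49 and 2.29 CPM in miR-324-null mice. Neocortex samples held 3.20, 1.66, 1.84, 1.34 and 2.47 CPM in WT and 2.20, 2.07, 1.72, 1.70 and 0.217 CPM in miR-324-null mice, the last of these from 4 estimated counts. A single null sample lay below the WT range in each tissue, and the log2 fold changes were -0.51 (SE 0.343) and -0.41 (SE 0.407). None of these intervals excluded 0: for *Col1a1* in hippocampus, the narrowest of the 3 there, the 95% interval ran from -0.98 to 0.059.

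*Col1a1* lies on chromosome 11 (chr11:94936224-94953042, plus strand), as does *Mir324*, 24.9 Mb away, and *Col1a2* (chr6:4504814-4541544) and *Col3a1* (chr1:45311538-45349706) lie elsewhere. The balance of these transcripts within a sample was compared as a ratio. The log2 ratio of *Col1a1* to *Col1a2* counts was -0.34 ± 0.135 (SD, n = 5) for the WT and -0.33 ± 0.434 for the null hippocampus samples, a difference of 0.00638 (SE 0.203). The largest of the 4 differences, in the *Col1a1* to *Col3a1* ratio of neocortex, was 0.323 (SE 0.468). In two-sided exact permutation tests of all relabellings the 4 differences had p = 0.595 to 0.968, with an adjusted p of 0.968 over the 4, and the smallest p the design allows is 0.00794. Within 1 Mb of *Col1a1*, 4 of 35 genes tested were DE in hippocampus (*Nme2*, *Mrpl27*, *Rsad1*, *Gm20390*, with 2 higher in null mice), against 0.115% of all genes. In neocortex 5 of 35 were DE (*Nme2*, *Mrpl27*, *Nme1*, *Phb*, *Gm20390*, with 1 higher), against 0.315% of all genes.

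Of the small leucine-rich proteoglycans, *Dcn* had the largest difference between genotypes in hippocampus. It read there 28.4, 11, 38.3, 39.2 and 27.7 CPM in WT samples 1 to 5 and 65.1, 105, 49.2, 32.4 and 44.9 CPM in miR-324-null samples 1 to 5. All but 1 null sample, 4 of 5, lay above every WT sample, and the means were 59.4 ± 28.2 against 28.9 ± 11.4 CPM (SD, n = 5). The log2 fold change was 1.04 (SE 0.338, 95% interval 0.30 to 1.77, unadjusted p = 0.00936), and it did not pass adjustment over all genes (edgeR's quasi-likelihood test, Benjamini-Hochberg adjusted p = 0.321). Without null sample 2, the highest, it was 0.73 (edgeR adjusted p = 0.541). *Dcn* in neocortex read 9.86, 6.22, 12.9, 5.58 and 8.78 CPM in WT and 12.3, 12.3, 5.47, 22.5 and 3.58 CPM in miR-324-null samples. There the null samples surrounded the WT samples, with 1 above and 2 below all of them, and the log2 fold change of 0.38 (SE 0.402, edgeR adjusted p = 0.762) turned to -0.048 without null sample 4. The difference between the tissues in the genotype effect on *Dcn* was 0.67 (SE 0.579, 95% interval -0.54 to 1.88, edgeR adjusted p = 0.958).

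*Lum* lies 47.0 kb beyond *Dcn* on the same strand of chromosome 10 (*Dcn* chr10:97479609-97518143, *Lum* chr10:97565128-97572703). Its hippocampus values were 2.08, 3.03, 6.43, 3.15 and 1.97 CPM in WT and 3.43, 3.67, 2.83, 3.50 and 5.93 CPM in miR-324-null samples, with 1 sample in each group far above the rest (log2 fold change 0.21, SE 0.315). *Lum* neocortex values were 1.43, 2.24, 1.45, 1.20 and 2.20 CPM in WT and 1.90, 3.03, 1.37, 2.25 and 0.760 CPM in miR-324-null samples (0.15, SE 0.324). *Ogn* (chr13:49608046-49624501) read 10.7, 8.20, 14.2, 10.9 and 10.8 CPM in WT hippocampus and 5.07, 7.58, 7.32, 11 and 15.5 CPM in miR-324-null hippocampus. The null samples were the more spread, with 3 below and 1 above the whole WT range (-0.23, SE 0.250). In neocortex, *Ogn* gave 9.45, 4.56, 4.54, 2.75 and 7.27 CPM in WT and 5.20, 3.69, 3.92, 6.71 and 1.47 CPM in miR-324-null samples (-0.44, SE 0.363). *Fmod* (chr1:134037254-134048277) gave 21.5, 7.17, 12.4, 8.11 and 13.7 CPM in WT hippocampus and 2.65, 4.21, 8.86, 9.39 and 9.57 CPM in miR-324-null hippocampus, where null samples 1 and 2 were below every WT sample. Its log2 fold change of -0.85 (SE 0.359, 95% interval -1.63 to -0.071, unadjusted p = 0.0348) did not pass adjustment (edgeR adjusted p = 0.409). *Fmod* neocortex values of 28.3, 8.25, 15.3, 5.65 and 15.6 CPM in WT and 12, 10.5, 9.86, 13.1 and 1.90 CPM in miR-324-null samples gave -0.63 (SE 0.442). Without null neocortex sample 5 that difference was -0.36 (edgeR adjusted p = 0.649).

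*Igf2* (chr7:142650766-142666816, minus strand) read 76.4, 42.1, 218, 50.5 and 64.2 CPM in WT hippocampus and 31.9, 44.0, 46.3, 50.7 and 132 CPM in miR-324-null hippocampus. In each group 1 sample stood far above the others, WT sample 3 and null sample 5, the samples with the highest *Ttr*. The log2 fold change of -0.57 (SE 0.470, edgeR adjusted p = 0.693) turned to 0.065 without WT sample 3, and was -0.43 (edgeR adjusted p = 0.413) without both. *Igf2* in neocortex gave 75.3, 41.3, 58.5, 35.3 and 72.5 CPM in WT and 59.1, 59.3, 43.8, 56.5 and 16.7 CPM in miR-324-null samples (-0.26, SE 0.295). For this gene, the holder of both seed matches printed above, the point estimates in null mice were thus below 0 in both tissues and neither passed the test. *Slc6a13* (chr6:121300227-121337733) read 10.02, 4.13, 7.93, 5.59 and 7.20 CPM in WT hippocampus and 4.14, 4.90, 7.20, 8.27 and 6.60 CPM in miR-324-null hippocampus, within the WT range (-0.16, SE 0.238). In neocortex, *Slc6a13* gave 10.3, 3.76, 7.90, 3.25 and 8.44 CPM in WT and 7.91, 6.97, 6.06, 8.90 and 2.12 CPM in miR-324-null samples (-0.076, SE 0.361). *Aldh1a2* (chr9:71215789-71296243) had 11.9, 4.26, 8.06, 5.12 and 6.51 CPM in WT and 3.04, 2.68, 6.16, 6.11 and 7.61 CPM in miR-324-null hippocampus, with null samples 1 and 2 below every WT sample (-0.48, SE 0.321). Its neocortex values were 9.995, 3.18, 5.00, 2.68 and 5.83 CPM in WT and 7.33, 4.85, 4.93, 8.47 and 1.14 CPM in miR-324-null samples, with a log2 fold change of -0.00241 (SE 0.429) and a 95% interval of -0.93 to 0.92.

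In neocortex, miR-324-null sample 5 was the lowest of its group for all 10 genes. Leaving it out raised the number of DE genes from 47 of 14930 tested to 566 of 15071, and 0 of the 10 genes were called. The differences then ran from -0.36 for *Fmod* and -0.22 for *Col1a1* to 0.26 for *Aldh1a2* and 0.61 for *Dcn*. No genotype-by-tissue interaction passed for any of the 10, where 3 of 15391 genes (0.0195%) did, and 0 of the 10 had an unadjusted p of at most 0.05, against 5.57% of all genes.

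**Figure D2:**
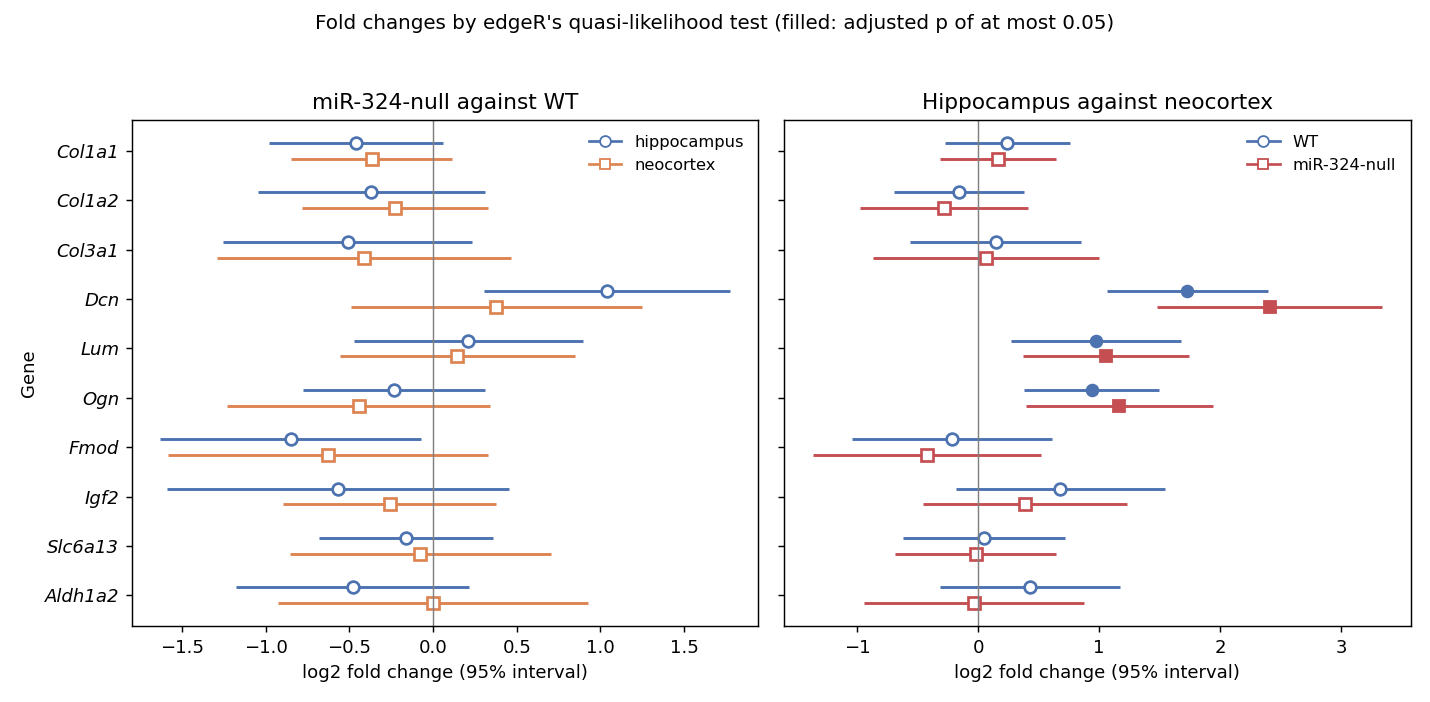
Log2 fold change and 95% interval of each gene for miR-324-null against WT (left, in hippocampus and neocortex) and for hippocampus against neocortex (right, in WT and miR-324-null mice), from edgeR's quasi-likelihood test; filled symbols have an adjusted p of at most 0.05. All symbols on the left are open, and *Dcn*, *Lum* and *Ogn* are filled on the right in both genotypes.

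The second comparison set hippocampus against neocortex within each genotype. In WT mice, 3 of the 10 genes were higher in hippocampus and 0 were lower (*Dcn*, *Lum* and *Ogn*), where 36.1% of 14894 genes were DE and 18.1% were higher. In miR-324-null mice the same 3 genes were higher, where 27.4% of 15033 genes were DE and 13.8% were higher. All 3 are small leucine-rich proteoglycans. The remaining member of that family, *Fmod*, had log2 fold changes of -0.22 (SE 0.383) in WT and -0.43 (SE 0.434) in miR-324-null mice, and neither passed.

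*Dcn* was 28.9 CPM in WT hippocampus against 8.67 CPM in WT neocortex, a log2 fold change of 1.73 (SE 0.307, edgeR's quasi-likelihood test, Benjamini-Hochberg adjusted p = 0.000601). Of the 5 WT hippocampus samples 4 were above all WT neocortex samples, and sample 2, at 11 CPM, lay within their range. In miR-324-null mice *Dcn* was 59.4 against 11.2 CPM, a log2 fold change of 2.41 (SE 0.428, edgeR adjusted p = 0.00113), and the groups did not overlap, as was so, in that direction, for 10.1% of all genes tested. *Dcn* remained called whichever sample was left out, at 1.6 to 1.94 in WT mice and 2.10 to 2.84 in null mice. *Ogn* was higher in hippocampus than in neocortex at 11 against 5.72 CPM in WT mice (0.94, SE 0.257, edgeR adjusted p = 0.0117) and 9.30 against 4.20 CPM in miR-324-null mice (1.17, SE 0.356, edgeR adjusted p = 0.028). The WT call held in each leave-one-out fit, while the null call was lost without null hippocampus 4 or 5 or null neocortex 2 or 3 (edgeR adjusted p up to 0.0753). *Lum* was higher in hippocampus at 3.33 against 1.70 CPM in WT mice (0.97, SE 0.326, edgeR adjusted p = 0.032) and 3.87 against 1.86 CPM in miR-324-null mice (1.06, SE 0.315, edgeR adjusted p = 0.0247). Without WT hippocampus 3, one of the high-*Ttr* samples, the WT difference in *Lum* was 0.59 (edgeR adjusted p = 0.0766), and without null hippocampus 5 the null difference was 0.85 (edgeR adjusted p = 0.0664). The WT call was also lost without WT neocortex 1, 3 or 4, and the null call without null neocortex 3.

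The collagens, *Igf2*, *Slc6a13* and *Aldh1a2* gave no call between tissues. *Col1a1* differed by 0.24 (95% interval -0.28 to 0.76) in WT and 0.16 (-0.32 to 0.64) in miR-324-null mice. *Col1a2* differed by -0.16 (-0.70 to 0.38) and -0.28 (-0.98 to 0.41), and *Slc6a13* by 0.049 (-0.62 to 0.72) and -0.022 (-0.69 to 0.65). Each of these intervals lay within about 1 of 0 on the log2 scale. *Igf2* was 0.68 higher on the log2 scale in WT hippocampus (SE 0.398), which became 0.052 without WT hippocampus 3, and neither value passed the test.

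Within groups, the 10 genes rose and fell together from sample to sample. Each sample's log2(CPM + 0.5) was taken as its deviation from the mean of its own group, and the 45 pairs of genes had Pearson correlations of 0.287 to 0.964 (median 0.818) over the 20 samples, where all genes of a sample share its dissection and library. *Fmod*, *Aldh1a2* and *Slc6a13* were the tightest, at 0.964 for *Fmod* with *Aldh1a2* and 0.962 for *Fmod* with *Slc6a13*. Against the mean of the other 9 genes, 8 of the 10 had correlations of 0.871 (*Igf2*) to 0.923 (*Col3a1*), while *Dcn* (0.486) and *Lum* (0.515) followed the rest less. Without miR-324-null neocortex 5 those values were 0.313 for *Dcn* and 0.349 for *Lum*, and 0.830 to 0.899 for the other 8.

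Whole samples were shifted in this way. All 10 genes were below the group mean in WT hippocampus 2 (mean deviation -0.63), WT neocortex 4 (-0.63) and miR-324-null neocortex 5 (-1.23). In WT hippocampus 3 (0.59), WT neocortex 5 (0.30), miR-324-null neocortex 1 (0.38) and miR-324-null neocortex 4 (0.56) all 10 were above it. *Dcn* went its own way in miR-324-null hippocampus. There its deviation was 0.25 in sample 1 and 0.94 in sample 2, where the other 9 genes averaged below 0, and -0.28 in sample 5, where the other 9 were all above their means.

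**Figure D3:**
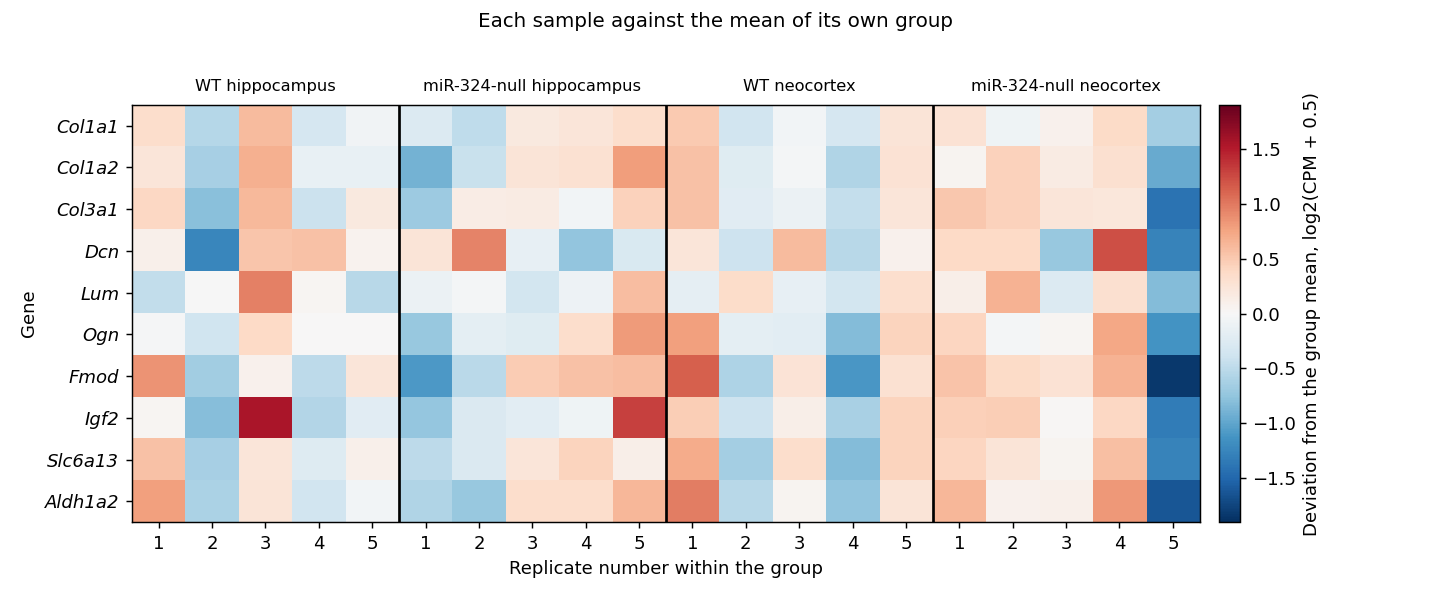
Deviation of each sample from the mean of its own group, in log2(CPM + 0.5), for the 10 genes (rows) and 20 samples (columns, by group and replicate number; red: above, blue: below). Columns are mostly of 1 colour, the rows of *Dcn* and *Lum* depart most from the others, and miR-324-null neocortex 5 is blue throughout.

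Of 14354 other genes with a mean of at least 1 CPM, the 10 whose deviations were most like the mean deviation of the set were *Slc13a4* (r = 0.947), *Efemp1* (0.933), *Serping1* (0.929), *Gjb2* (0.928), *Bmp6* (0.927), *Colec12* (0.920), *Slc6a20a* (0.912), *Bgn* (0.904), *Aebp1* (0.903) and *Bmp7* (0.878), against a median of -0.00916 over all of them. The count of these 10 that stayed among the top 10 was 8 without miR-324-null neocortex 5 and 8 without the 3 high-*Ttr* samples. *Slc13a4* encodes a sulfate transporter, *Slc6a20a* a proline transporter, *Gjb2* a gap junction channel (connexin 26), *Bmp6* and *Bmp7* signals of the bone morphogenetic protein family, *Bgn* the proteoglycan biglycan, *Efemp1* a fibulin and *Serping1* the C1 inhibitor of complement. These correlations describe the 20 samples and were given no p.

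The high-*Ttr* samples moved with *Igf2* and *Lum*. Summed over 12 choroid plexus markers (*Ttr*, *Folr1*, *Kl*, *Aqp1*, *Otx2*, *Clic6*, *Kcne2*, *Slc4a5*, *Cldn2*, *Tmem72*, *F5*, *Kcnj13*), the level ran over 47.0 to 7022 TPM in WT hippocampus, 63.7 to 6051 in miR-324-null hippocampus, 28.9 to 83.9 in WT neocortex and 40.1 to 1309 in miR-324-null neocortex, and none of the 12 was at 0 in all samples of a group. *Igf2* and *Lum* were highest of their tissue in WT hippocampus 3 and miR-324-null hippocampus 5. *Dcn* in those samples was 38.3 and 44.9 CPM, within the range of the rest of its group, and the mean deviation of the set was 0.59 and 0.53. In miR-324-null neocortex 2, with 1250 TPM of *Ttr*, *Lum* was the highest of its group at 3.03 CPM and *Igf2* at 59.3 CPM was level with sample 1 at 59.1 CPM. Leaving out all 3 samples gave 2 of 10 genes called between tissues in each genotype (*Dcn* and *Ogn* in WT, *Dcn* and *Lum* in miR-324-null mice). Over all genes, 4826 of 15002 were then called in WT and 3141 of 14967 in miR-324-null mice. Between genotypes 0 of 10 were called, where 19 of 14736 genes were in hippocampus and 32 of 15022 in neocortex. The part of choroid plexus in the remaining differences was not tested.

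**Figure D4:**
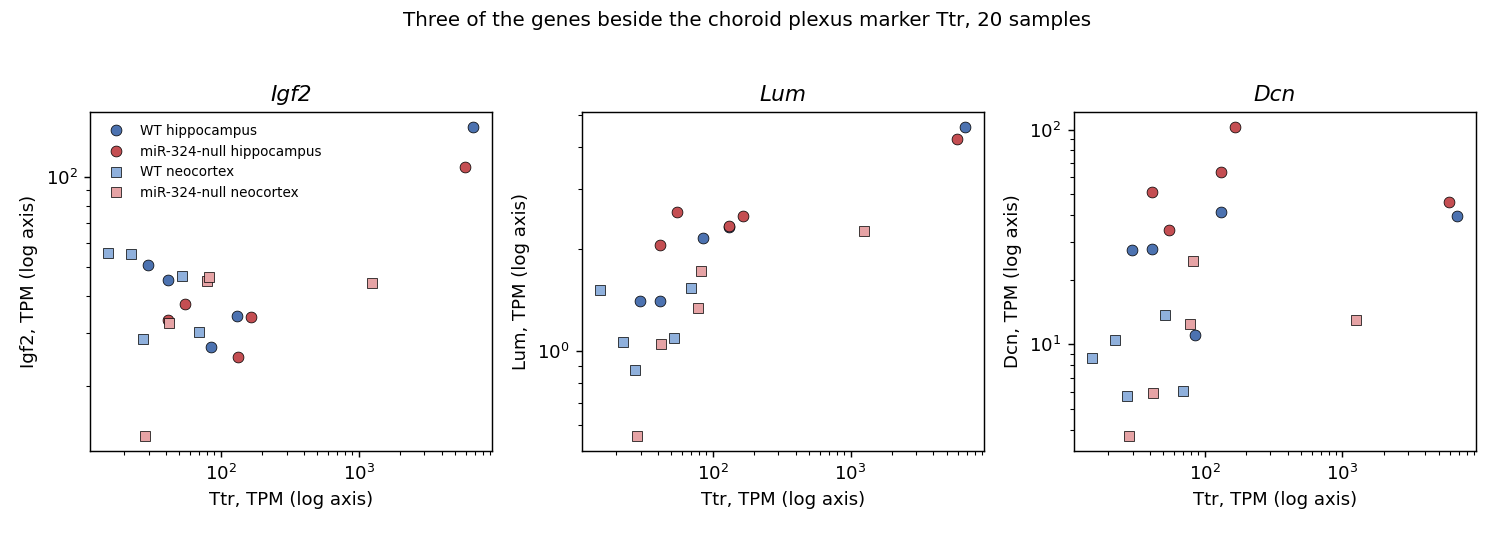
TPM of *Igf2*, *Lum* and *Dcn* against TPM of *Ttr*, a choroid plexus marker, in the 20 samples (log axes; circles: hippocampus; squares: neocortex; blue: WT; red: miR-324-null). The 2 hippocampus samples at the right, with 6806 and 5924 TPM of *Ttr*, are the highest for *Igf2* and *Lum* and lie inside the hippocampal range for *Dcn*.

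Other genes of the meninges were scanned as a list of 20. None was DE by genotype, of 19 tested in hippocampus and 20 in neocortex, and the point estimates were below 0 for 16 of 19 and 17 of 20, with medians of -0.19 and -0.18. The most abundant of them was *Ptgds*, which makes prostaglandin D2, at 1047 ± 422 TPM (SD, n = 5) in WT hippocampus, 788 ± 380 in miR-324-null hippocampus, 1146 ± 522 in WT neocortex and 929 ± 179 in miR-324-null neocortex. Next came *Mgp*, an inhibitor of calcification (35.7 ± 20.6 TPM in WT hippocampus), *Efemp1* (13.2 ± 4.72) and *Islr* (11.4 ± 2.14). Between tissues 1 of 20 passed in each genotype, *Fbln1* (fibulin 1), higher in hippocampus by 0.64 (edgeR adjusted p = 0.0161) in WT and 0.90 (0.00308) in miR-324-null mice. Over all genes tested, 36.1% were DE in WT and 27.4% in miR-324-null mice.

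Of 14 other fibroblast collagens, 0 were DE by genotype in either tissue. Between tissues in WT mice 1 was higher in hippocampus and 5 were lower, where 36.1% of all genes tested were DE in either direction. The higher one was *Col5a2* (type V), by 1.02 in WT mice and by 1.53 in null mice (edgeR adjusted p = 0.00218 and 0.00216), the gene 24.6 kb from *Col3a1* on the opposite strand. Lower in WT hippocampus were *Col6a1* (-1.88), *Col12a1* (-1.36), *Col6a2* (-1.17), *Col15a1* (-0.83) and *Col5a1* (-0.82), with edgeR adjusted p of at most 0.026. In miR-324-null mice 1 was higher and 4 were lower, *Col26a1* (-0.96), *Col12a1* (-0.76), *Col5a1* (-0.67) and *Col15a1* (-0.67), where 27.4% of all genes were DE. The genotype-by-tissue interaction called 0 of the 14. The most abundant of the list in WT neocortex were *Col6a1* (34.2 ± 3.90 TPM), *Col16a1* (14.6 ± 2.31), *Col6a2* (10.3 ± 1.27) and *Col5a1* (8.62 ± 3.13). Of the basement membrane collagens, led by *Col4a1* (25.4 ± 1.85 TPM in WT hippocampus), *Col4a2* (17.3 ± 3.88), *Col18a1* (3.08 ± 0.979) and *Col4a5* (1.81 ± 0.395), 0 of 5 tested were DE by genotype in either tissue and only *Col4a5* passed between tissues, in WT mice (0.59, edgeR adjusted p = 0.0325). The interaction called 0 of the 7 basement membrane collagens tested.

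Enzymes and chaperones that modify and crosslink collagen gave 0 DE genes by genotype, of 23 tested in hippocampus and 22 in neocortex. Between tissues 8 of 22 were higher in WT hippocampus and 0 were lower, and 4 of 23 were higher in miR-324-null hippocampus and 0 were lower. Over all genes tested, 18.1% were higher in WT hippocampus and 13.8% in miR-324-null hippocampus. *Sparc*, a collagen-binding matricellular protein that astrocytes also make, was the most abundant, at 263 ± 16.8 TPM in WT hippocampus and 159 ± 10.9 TPM in WT neocortex, and was higher in hippocampus by 0.75 in WT and 0.68 in miR-324-null mice. After it came *Ppib* (165 ± 12.5 TPM in WT hippocampus), *P4hb* (96.5 ± 7.97) and *Bmp1* (31.8 ± 8.38), a prolyl isomerase, a subunit of prolyl hydroxylase and a procollagen proteinase. *Loxl1*, a lysyl oxidase, was higher by 1.10 and 1.29. Called in WT mice alone were *Adamts2* (0.60), *Loxl2* (0.58), *Plod2* (0.54), *Loxl3* (0.43), *Fkbp10* (0.40) and *Plod1* (0.32), and in miR-324-null mice alone *Ppib* (0.20). *Adamts14* was called in miR-324-null mice (1.80) and did not pass the count filter in WT mice. Whether those 8 differed between genotypes was tested by the interaction, which called none of them. Of the other small leucine-rich proteoglycans, *Prelp* (0.88 and 0.81) and *Ecm2* (0.41 and 0.68), the latter 75.3 kb from *Ogn*, were higher in hippocampus of WT and miR-324-null mice, and *Podn* was lower (-0.98 and -1.01). None of the 7 tested was DE by genotype. In TPM, *Prelp* (19.9 ± 4.80 in WT hippocampus) and *Bgn* (16.8 ± 3.65) stood between *Dcn* and *Ogn*, with *Ecm2* (3.63 ± 0.540) and *Podn* (2.12 ± 0.746) lower.

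Partners of *Igf2*, *Aldh1a2* and *Slc6a13* gave a single genotype call. In the insulin-like growth factor axis, *Igfbp4*, which binds and restrains the growth factors, was lower in miR-324-null neocortex, with a log2 fold change of -0.54 (SE 0.0784, edgeR adjusted p = 0.00937), at 71.8 ± 9.69 TPM against 98.3 ± 5.97 TPM in WT. The other 11 tested there and all 11 tested in hippocampus were not DE. The hippocampus estimate for *Igfbp4* had the other sign, at 0.18 (SE 0.0954, edgeR adjusted p = 0.517). In WT hippocampus *Igfbp4* stood at 77.2 ± 8.33 TPM, *Igfbp5* at 64.6 ± 7.74, *Igfbp2* at 60.2 ± 41.4 and *Igfbp6* at 18.3 ± 4.04. Between tissues *Igfbp6*, which prefers IGF2, was lower in hippocampus (-1.96 in WT and -1.76 in miR-324-null mice) and *Igfbp3* was higher (0.80 and 1.11). Also called in WT mice were *Igf2bp2* (-1.39), *Igf1* (-0.41), *Igfbp4* (-0.33), *Igf1r* (-0.17) and *Igfbp5* (0.28), and in miR-324-null mice *Igfbp4* (0.40) and *Igf1r* (-0.34). The genotype-by-tissue interaction called 0 of the 12 genes of this axis tested, so these tissue differences are not shown to depend on genotype. In the retinoic acid pathway 0 of 15 were DE by genotype in either tissue, and the most abundant over all samples, given for WT hippocampus, were *Aldh1a1* (65.5 ± 7.67 TPM), *Rxrb* (51.2 ± 2.30), *Rbp4* (15 ± 1.40) and *Dhrs3* (21.2 ± 3.70). *Stra6*, the retinol uptake receptor, was higher in hippocampus of either genotype (0.81 and 0.94) and *Rbp4* lower (-0.95 and -0.74). *Cyp26b1*, which degrades retinoic acid, was higher in WT hippocampus (1.95), and in miR-324-null mice *Rdh10* (0.36) and *Rara* (0.40) were higher and *Rarb* (-1.56) lower. The interaction called 0 of the 16 genes of this pathway tested. Among transporters related to *Slc6a13*, *Slc6a11* (72.6 ± 5.74 TPM in WT hippocampus) and *Slc6a6* (50.7 ± 2.25) exceeded it and *Slc6a12* (1.63 ± 0.536) was below it. None of these 3 was DE by genotype, and *Slc6a6* was lower in miR-324-null hippocampus than in neocortex (-0.24). The interaction did not call *Slc6a6*.

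Markers of the other cells that membranes, vessels and ventricles can bring were not DE by genotype in either tissue. This held for the markers tested of brain endothelium, pericytes, vascular smooth muscle, ependyma, border macrophages, blood and choroid plexus, 37 of 45 in hippocampus and 35 of 45 in neocortex. Between tissues, 5 of 7 choroid plexus markers were higher in WT hippocampus (*Ttr*, *Clic6*, *F5*, *Kl*, *Otx2*) and 1 of 8 in miR-324-null hippocampus (*Kl*). Over all genes tested, 18.1% were higher in WT hippocampus and 13.8% in miR-324-null hippocampus, and 36.1% and 27.4% were DE in either direction. Of the ependymal markers 3 of 5 were higher in miR-324-null hippocampus (*Foxj1*, *Ccdc153*, *Tmem212*) and 0 of 3 in WT hippocampus. *Abcc9*, 1 of 6 pericyte markers, was lower in WT hippocampus, and no marker of endothelium, smooth muscle, border macrophages or blood passed. Of these markers, 42 were tested by the genotype-by-tissue interaction, which called 0. Striatal markers, a sign of tissue next to the neocortex, were lower in hippocampus for 3 of 6 in WT and 6 of 6 in miR-324-null mice, and the interaction called 0 of the 6. The part of these cells in the differences of *Dcn*, *Ogn* and *Lum* between tissues was not tested.

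The annotation lists 42 transcripts for the 10 genes, of which 31 had counts in some sample. *Lum*, *Ogn* and *Aldh1a2* have a single transcript each. *Igf2* was split mainly between Igf2-201, a coding transcript with 43.1 to 53.4% of the gene's TPM in WT hippocampus and 32.9 to 48.9% in miR-324-null hippocampus, and Igf2-208, a non-coding one with 35.2 to 45.5% and 41.4 to 54.4%. By counts Igf2-201 led, at means of 1008 against 176 in WT hippocampus. The TPM of *Igf2* thus leaned on Igf2-208 more than its counts did, and the division of reads between overlapping transcripts is an estimate. *Dcn* came from Dcn-201 at 85.0 to 99.7% of its TPM in WT hippocampus and 92 to 99.9% in miR-324-null hippocampus. *Col3a1* reads were spread over 4 transcripts, its main one Col3a1-201 taking 22.4 to 50.0% in WT hippocampus. *Igf2* and *Ogn* overlap other annotated genes with estimates: *Gm49394* on the strand of *Igf2* reached at most 0.363 TPM, and *Cenpp*, opposite *Ogn*, at most 2.10 TPM.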

How the data were processed

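RNA was sequenced from 20 samples, 5 from each of WT hippocampus, miR-324-null hippocampus, WT neocortex and miR-324-null neocortex, and groups were taken from the labels. The authors quantified reads against mouse transcripts (GRCm38) with kallisto and deposited estimated counts and TPM per transcript, neither rounded nor filtered. The sources used here do not give the strand setting of that step, and the submitters' label for the build names a human assembly although the identifiers are of mouse. Estimated counts are divided between transcripts by a model, so genes with similar or overlapping sequence share an uncertainty that the values do not show.

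Transcripts were joined to GENCODE M21 (GRCm38) by identifier, and 113580 of 115270 matched. The 1690 others held at most 0.556% of a sample's counts and were left out. Estimated counts and TPM were summed to 35580 genes. Samples held 12752400 to 19617800 counts, and no pair of samples was identical. Summed estimated counts were rounded and tested with edgeR 4.0.16 in R 4.3.3 (TMM, default filter on low counts, quasi-likelihood test, Benjamini-Hochberg adjustment over all genes tested, threshold 0.05), with only the groups compared in each fit and all 20 samples in the interaction. CPM are TMM-normalized over the 20 samples. Collagen ratios were tested by exact permutation. Alternatives used DESeq2 1.42.0, other filters and scaling, the transcript length, the replicate number and single samples left out. In simulated counts, 200 genes had a log2 change of 1. Of these, edgeR recovered 90.0% in the hippocampus comparison (14676 genes) and 87.5% in the neocortex comparison (14801 genes). False calls were 4.26% and 5.41%. Recovery was not measured for the fibroblast markers alone, so it does not give the chance of finding such a change in them. *Dcn* by genotype in hippocampus, at a log2 fold change of 1.04 (SE 0.338), had an edgeR adjusted p of 0.321.

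All 10 genes were described in each comparison. Of each other list, the up to 4 genes of highest mean TPM and any called gene were named, apart from a few genes of the lists that are not reported here. The 10 genes, the lists and the tests were chosen with earlier results of these data known. For neocortex the sources do not say whether samples are separate mice, and p-values measure the spread between these samples. *Mir324* itself is not measured by these libraries, so the genotype labels were not checked here.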

Additional observations from a re-analysis of the deposited data

Results flagged for a closer look

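In 6 of the 40 groups of 5 values (10 genes in 4 groups), 1 sample lay apart from the other 4 by Dixon's criterion at 95%. Chance alone meets it in about 1 group in 20 where values are normally distributed, which CPM need not be. The genes also moved together within samples, so the 40 groups are not independent and the 6 cannot be set against that rate. The 6 outlying values came from 3 samples. In miR-324-null neocortex 5, *Col3a1* was low at 0.217 CPM, with the next sample at 1.70 CPM, and *Fmod* was low at 1.90 CPM, with the next at 9.86 CPM. In WT hippocampus 3, *Lum* was high at 6.43 CPM against 3.15 CPM in the next sample, and *Igf2* was high at 218 CPM against 76.4 CPM. In miR-324-null hippocampus 5, *Lum* was high at 5.93 CPM against 3.67 CPM, and *Igf2* was high at 132 CPM against 50.7 CPM. *Ttr* was at 6806 TPM in WT hippocampus 3 and 5924 TPM in miR-324-null hippocampus 5. The part of choroid plexus RNA in the *Igf2* and *Lum* values was not tested.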

How the results depend on the processing

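By genotype and for the interaction, 0 of the 10 genes were called in every setting run. *Dcn* in hippocampus kept its direction, at 0.73 to 1.19 when single samples were left out, with edgeR or DESeq2 adjusted p of 0.25 to 0.57 over all settings. Between tissues, *Dcn* stayed called in every setting, and in miR-324-null mice the number of called genes ran from 1 to 3 when single samples were left out (1 without null hippocampus 5 or null neocortex 3).

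Values near 0 changed sign. In neocortex by genotype, *Aldh1a2* was 0.00088 by DESeq2 and 0.030 without the 3 high-*Ttr* samples, *Slc6a13* 0.0032 with a length offset, and *Lum* -0.11 without the high-*Ttr* samples. Between tissues, *Slc6a13* was -0.058 with the offset (WT), *Col3a1* -0.060 (WT) and *Igf2* -0.013 (null) without the high-*Ttr* samples. The *Col1a1* to *Col1a2* ratio in neocortex was 0.195 from TPM. With single samples left out, ranges that crossed 0 by genotype were -0.30 to 0.0067 (*Slc6a13*) and -1.06 to 0.065 (*Igf2*) in hippocampus, and in neocortex -0.26 to 0.15 (*Slc6a13*), -0.24 to 0.35 (*Aldh1a2*), -0.11 to 0.35 (*Lum*) and -0.048 to 0.61 (*Dcn*). Between tissues they were -0.12 to 0.26 (*Slc6a13*), -0.060 to 0.35 (*Col3a1*), -0.37 to 0.014 (*Col1a2*) and -0.50 to 0.17 (*Fmod*) in WT mice, and -0.25 to 0.13 (*Slc6a13*), -0.30 to 0.20 (*Aldh1a2*), -0.22 to 0.23 (*Col3a1*) and -0.11 to 0.55 (*Igf2*) in miR-324-null mice. The *Lum* interaction ran from -0.14 to 0.46. The *Col1a1* to *Col1a2* ratio ran from -0.17 to 0.129 in hippocampus and -0.186 to 0.025 in neocortex, and that to *Col3a1* from -0.143 to 0.212 and -0.123 to 0.528. The cause was not tested.

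Same-numbered hippocampus and neocortex samples correlated at -0.118 to 0.104 in WT mice (1 of 5 over 0.1, 2 of 5 best with their own number) and -0.013 to 0.204 in null mice (3 of 5 over 0.1, 3 of 5 best with their own number), and same-numbered WT and null samples at -0.214 to 0.154. Not every pair was over 0.1, so the samples were not taken as paired in the main tests. These correlations cannot exclude pairing, and whether same-numbered tissues share a mouse is not known. With the replicate block, *Slc6a13* was 0.045 and *Aldh1a2* 0.018 between tissues in miR-324-null mice, where *Lum* and *Dcn* stayed called and *Ogn* did not (adjusted p = 0.0628, edgeR). In WT mice with the block, *Lum* had an edgeR adjusted p of 0.0514 and *Aldh1a2* one of 0.0257. The block gave 4 called genes in all in hippocampus and 30 in neocortex by genotype.

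Counts over all genes moved by over 1.5 times by genotype: in hippocampus from 17 to 141 (DESeq2), 83 (all 20 samples in one fit) and 9 (at least 10 counts in every sample), with 10 to 31 when single samples were left out, and in neocortex from 47 to 241 (DESeq2), 26 (at least 10 counts), 30 (length offset), 27 to 39 with another single sample left out and 566 without null neocortex 5. The interaction went from 3 to 7 (DESeq2), 1 (offset), 0 (block within genotype) and 20 (without null neocortex 5). In simulated data DESeq2 gave 12.6% false calls in hippocampus and 17.5% in neocortex. Counts as low as 4 in a sample (*Col3a1*) limit what these libraries can show for the scarcest genes.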

Other observations

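Since *Dcn* and *Lum* followed the other 8 genes least, the genes most like each of them alone were listed after their values were seen, by the same correlation of deviations from group means over 20 samples, as a description with no p. For *Dcn* these were *Col23a1* (r = 0.886), *Cpne6* (0.865), *Cpne7* (0.856), *Dio3* (0.855), *Kcng1* (0.843), *Ptpn14* (0.839), *Grin3a* (0.832) and *Wdr6* (0.830). *Col23a1* is a collagen gene that the collagen lists used here do not hold, *Grin3a* encodes a subunit of NMDA receptors and *Kcng1* a potassium channel subunit. None of the 8 was in the lists of meningeal genes or of collagen enzymes. Which cells gave the *Dcn* transcripts was not tested. For *Lum* they were *Plce1* (0.909), *Tgfb2* (0.909), *Lhfpl2* (0.909), *Plxnb2* (0.884), *Fam13c* (0.878), *Cald1* (0.877), *Col18a1* (0.875) and *Hfe* (0.873). The choroid plexus markers *Kl* (0.849), *Ttr* (0.845) and *Cldn2* (0.836) came close behind for *Lum*, at places 12, 13 and 15, whereas *Dcn* and *Ttr* had an r of 0.262. *Col5a2*, the neighbour of *Col3a1*, was called higher in hippocampus in both genotypes and *Col3a1* in neither, and the difference between the neighbours was not tested.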
